A study of Mus musculus with 20 samples.

Results

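The amygdala of mice lacking both Ca2+-stimulated adenylyl cyclases (DKO, deficient in Adcy1 and Adcy8) was compared with that of wild-type mice (WT). The comparison used the 10 amygdala arrays of a series of 20 arrays, 5 labelled as amygdala of DKO and 5 as amygdala of WT, and the other 10 arrays are of the hippocampus. In each genotype 1 array was run at baseline and 1 each at 0 hr, 1 hr, 48 hr and 1 wk after contextual fear training, a 5 min trial with 1 foot shock of 0.7 mA for 2 s, and the 1 wk mice had a test trial before tissue collection. All mice were males of 2 months on a C57BL/6 background. The DKO animals came from the matings of an inducible AC8 rescue line, kept on doxycycline until weaning, and a DKO animal could carry the tetop-AC8 transgene alone, the CaMKII-tTA transgene alone, or no transgene. The WT animals were C57Bl/6 mice that were not littermates of the DKO. Breeding history, doxycycline exposure and transgenes therefore cannot be told apart from the deletion of both cyclases. Each array was hybridised with pooled RNA from 5 to 10 mice, taken as bilateral micropunches. The 5 arrays of a genotype served as its replicates, so the spread behind each test holds the differences between time points as well as those between pools of mice.

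Adenylyl cyclases make cAMP, which activates protein kinase A and Epac and, through CREB, alters transcription. Adcy1 and Adcy8 are the cyclases that Ca2+ and calmodulin stimulate, and they couple activity at synapses to cAMP. The amygdala is required for the learning and expression of conditioned fear.

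The values are log2 RMA levels of 28853 transcript clusters, the probe groups that stand for a gene or transcript on the Affymetrix Mouse Gene 1.0 ST array. The array annotation pairs 21789 clusters with 1 gene symbol (19938 genes), 1621 with several symbols and 5443 with none. Median levels of the 10 amygdala arrays lay between 6.68 and 6.83, and any pair of arrays correlated at r of 0.985 to 0.996 across clusters. Genes that mark neurons of the central and intercalated amygdala had a mean level of 7.60 to 7.89 on the WT amygdala arrays and of 6.99 over the 5 WT hippocampus arrays, and hippocampal neuron markers had 7.22 to 7.57 against 8.06. Some arrays stood apart. Clusters above the median level averaged 8.11 on the DKO 48 hr array and 8.27 to 8.37 on the other 9 arrays. Clusters at or below the median level were lowest on the WT 1 hr and baseline arrays, with means of 5.365 and 5.402, followed without a clear gap by WT 0 hr at 5.445 and DKO 48 hr at 5.446, and reached 5.533 on the WT 1 wk array. Neither mean differed between the genotypes over the 5 arrays of each (two-sided exact permutation tests, unadjusted p = 0.111 and 0.357, adjusted over the 4 array properties tested p = 0.254 and 0.476, smallest p possible 0.00794). On the baseline, 0 hr and 1 hr arrays alone, however, the genotypes did not overlap. There the dimmer clusters had means of 5.365 to 5.445 in WT and 5.480 to 5.521 in DKO. The brighter clusters had 8.353 to 8.368 and 8.269 to 8.339, and the array medians were 6.68 to 6.75 and 6.79 to 6.81. Calls over the 10 arrays and over the baseline, 0 hr and 1 hr arrays were also made with each of their arrays left out in turn. The counts at a single time point hold 1 array per genotype and could not be made that way.

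A small set of transcripts was lower in DKO amygdala at every time point, and it held Adcy8, Adcy1, Cyb5r3, Ift27, Ccm2, Slc11a2, the X-linked transcript G530011O06Rik and a family of predicted genes around Gm10590. At an adjusted p of 0.1 in limma (Benjamini-Hochberg over all clusters), 28 of the 28853 clusters differed, which is 0.097% of those tested, 27 lower in DKO (0.0936%) and 1 higher (0.00347%). At an unadjusted p under 0.05 there were 1363 clusters lower (4.72%) and 605 higher (2.1%). The median difference over all clusters was -0.01. On all 28 called clusters the 5 DKO arrays and the 5 WT arrays did not overlap, as on 0.863% of all clusters, 0.551% with all DKO arrays below and 0.312% with all above. The 27 lower clusters were lower at all 5 time points, as were 5.22% of all clusters, and the 1 higher cluster was higher at all 5, as were 2.26%. Because several clusters share probes, the 28 held 20 distinct sets of values, and 11 clusters carried a single symbol, which named 8 genes.

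Adcy8, the cyclase on chromosome 15 whose gene was disrupted in the DKO, had log2 levels of 7.26, 7.15, 7.08, 7.09 and 6.94 on the WT arrays and of 5.89, 5.59, 5.52, 5.46 and 5.80 on the DKO arrays, in the order baseline, 0 hr, 1 hr, 48 hr and 1 wk that is kept for all values by array. Every DKO array was more than 1 log2 unit below every WT array. The means were 7.10 ± 0.115 (SD, n = 5) and 5.65 ± 0.186, a difference of -1.45 (SE 0.0928, fold change -2.74, limma adjusted p = 1.65e-06). Adcy8 changed more than any other called cluster.

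Adcy1, on chromosome 11, had levels of 8.26, 8.37, 7.97, 8.38 and 8.07 in WT and of 7.51, 7.68, 7.77, 7.55 and 7.73 in DKO. The groups did not overlap, but at 1 hr the WT array was within 0.21 of the DKO array. The difference was -0.56 (SE 0.0915, fold change -1.48, limma adjusted p = 0.0181), and without the DKO 48 hr array it was not called (adjusted p = 0.115). Nor was Adcy1 called without both baseline arrays (0.246), both 0 hr arrays (0.264) or the DKO 48 hr and 1 wk arrays (0.314), with the time point as a block (0.182), or by the methods' t-test (Benjamini-Hochberg 0.389, Storey q 0.283). Which part of either gene was deleted, and whether the probes of these clusters lie inside it, is not given in the sources used here, so the level left in DKO is not a measure of intact transcript.

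Cyb5r3, the NADH-cytochrome b5 reductase that feeds electrons to fatty acid desaturation and reduces methaemoglobin, was lower on all DKO arrays. Its levels were 7.93, 8.11, 8.08, 7.92 and 7.81 in WT and 7.27, 7.16, 7.32, 7.08 and 7.47 in DKO, a difference of -0.71 (SE 0.087, fold change -1.63, adjusted p = 0.00102). Its gap ran from 0.34 at 1 wk to 0.94 at 0 hr, each from 1 array per genotype. Ift27 (also named Rabl4), a small GTPase of the intraflagellar transport complex that carries cargo along cilia, had levels of 7.87, 7.72, 7.88, 7.76 and 7.79 in WT and 7.31, 7.33, 7.36, 7.35 and 7.38 in DKO. The DKO arrays of Ift27 were within 0.07 of each other. The difference was -0.46 (SE 0.0656, fold change -1.38, adjusted p = 0.00603), and without the baseline arrays the adjusted p of Ift27 was 0.112.

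Ccm2 encodes a scaffold protein of the cerebral cavernous malformation complex at endothelial junctions. Its levels were 8.08, 7.93, 8.0, 8.01 and 8.01 in WT and 7.58, 7.68, 7.59, 7.57 and 7.43 in DKO, a difference of -0.44 (SE 0.0693, fold change -1.36, adjusted p = 0.0141). Ccm2 was outside the limit after a further quantile normalization of the 10 arrays (adjusted p = 0.111), without the baseline arrays (0.207), without the DKO 48 hr and 1 wk arrays (0.138) and with the time point as a block (0.182). Slc11a2 encodes the divalent metal transporter DMT1, which moves iron out of the gut lumen and the endosome. It had the smallest standard error of the called genes, with levels of 7.34, 7.32, 7.40, 7.35 and 7.35 in WT and 6.97, 6.91, 6.98, 6.98 and 6.94 in DKO. Neither group spanned more than 0.08. The difference was -0.39 (SE 0.0627, fold change -1.31, adjusted p = 0.0147). The call on Slc11a2 ended without the baseline arrays (0.183), the 0 hr arrays (0.264) or the DKO 48 hr and 1 wk arrays (0.108), and with the time point as a block (0.191).

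G530011O06Rik, a transcript on the X chromosome with no role given here, had levels of 7.70, 7.45, 7.51, 7.59 and 7.37 in WT and 6.98, 7.01, 7.02, 6.87 and 7.27 in DKO. The 1 wk arrays of both genotypes lay closest, 0.11 apart. The difference was -0.50 (SE 0.0866, fold change -1.41, adjusted p = 0.0384), and leaving out any of 6 arrays (WT baseline or 48 hr, DKO baseline, 0 hr, 1 hr or 48 hr) ended the call, with adjusted p of 0.113 to 0.17, as did the time point as a block (0.293).

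**Figure D1:**
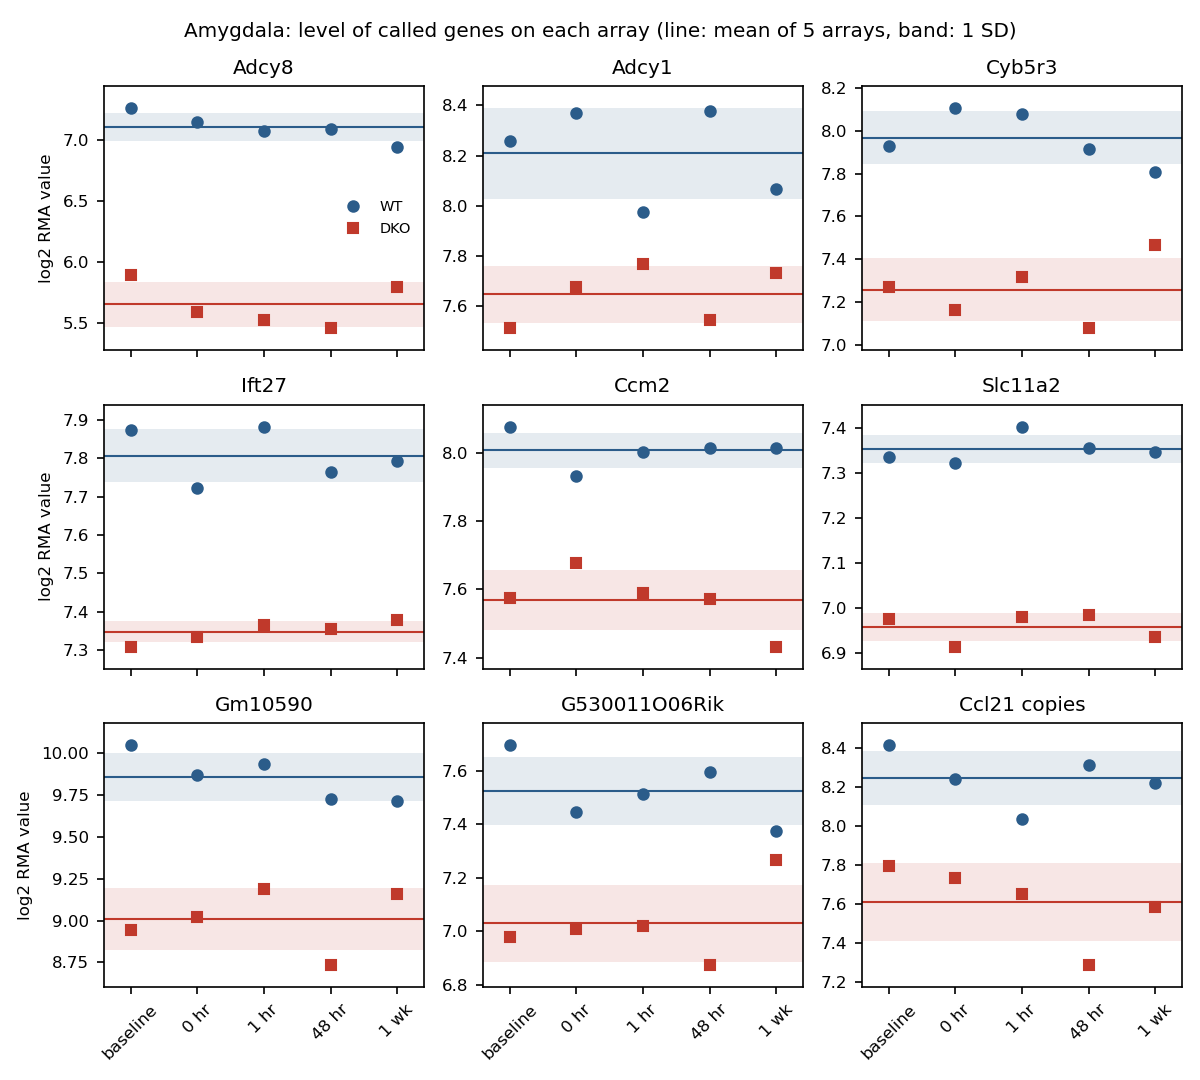
Level (log2 RMA) on each of the 10 amygdala arrays, by time point, for the 8 called genes and for the clusters paired with several Ccl21 symbols; circles are WT, squares DKO, lines the mean of 5 arrays and bands 1 SD. In all 9 panels every DKO array lies below every WT array, by the widest margin for Adcy8 and the narrowest for G530011O06Rik, whose 1 wk arrays were 0.11 apart.

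The other called clusters came from families of near-identical genes, whose members the probes cannot separate. For 9 clusters the annotation lists several predicted genes that include Gm10590, and these had mean differences of -1.22 to -0.95 (fold changes -2.32 to -1.93, largest adjusted p 1.17e-05). Their levels were 8.61 to 9.43 over the WT arrays and 7.59 to 8.38 over the DKO arrays. Another 4 clusters carry the symbol Gm10590 alone and have identical values, 10.05, 9.87, 9.93, 9.72 and 9.71 in WT and 8.94, 9.02, 9.19, 8.73 and 9.16 in DKO. Their difference was -0.85 (SE 0.0962, fold change -1.80, adjusted p = 0.000377). The family thus gave 13 of the 28 calls, and none of the 13 was lost when any 1 array was left out.

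A further 4 clusters with identical values are paired with the symbols of several copies of Ccl21, a chemokine that binds Ccr7 and draws lymphocytes and dendritic cells into lymphoid tissue. Their levels were 8.42, 8.24, 8.04, 8.32 and 8.22 in WT and 7.79, 7.73, 7.65, 7.28 and 7.59 in DKO. The lowest WT array was thus above the highest DKO array, by 0.25. The difference was -0.64 (SE 0.0988, fold change -1.55, adjusted p = 0.0119), and without the DKO 48 hr and 1 wk arrays the adjusted p was 0.138. Ccr7, the receptor, had a difference of 0.14 with overlapping groups (adjusted p = 0.68).

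The 250 bases before the start of the Ccl21 copies that RefSeq (GRCm38.p6) places on chromosome 4 are shown because they make plain how little separates the copies outside the transcript as well. The windows are chr4:42773992-42774241 on the minus strand for Ccl21a, chr4:41903363-41903612 on the plus strand for Ccl21d and chr4:42114537-42114786 on the plus strand for Gm13304, and capitals mark the 2 positions at which these windows are not all alike.
Ccl21a: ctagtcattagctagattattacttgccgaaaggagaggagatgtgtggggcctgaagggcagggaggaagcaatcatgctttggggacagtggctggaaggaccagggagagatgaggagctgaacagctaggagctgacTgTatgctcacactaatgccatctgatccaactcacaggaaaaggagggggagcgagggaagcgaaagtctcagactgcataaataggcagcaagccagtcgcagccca
Ccl21d: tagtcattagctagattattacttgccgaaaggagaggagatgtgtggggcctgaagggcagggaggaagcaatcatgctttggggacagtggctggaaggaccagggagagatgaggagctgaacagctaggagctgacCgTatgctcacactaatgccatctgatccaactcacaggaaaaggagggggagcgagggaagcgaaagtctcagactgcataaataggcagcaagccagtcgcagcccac
Gm13304: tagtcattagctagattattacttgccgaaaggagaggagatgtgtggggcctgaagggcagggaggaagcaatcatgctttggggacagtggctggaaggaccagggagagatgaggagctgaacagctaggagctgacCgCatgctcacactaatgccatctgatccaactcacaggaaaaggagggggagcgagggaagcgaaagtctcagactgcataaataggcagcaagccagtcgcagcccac
Aligned with a shift of 1 base, Ccl21a and Ccl21d differed at 1 of 249 bases and Ccl21a and Gm13304 at 2 of 249. The window of Gm10591, chr4:42611873-42612122 on the plus strand, was identical to that of Gm13304 over all 250 bases. The window listed for Ccl21b was no close match, with 33.1% of 248 bases shared with Ccl21d. The cAMP response element TGACGTCA, the palindrome that CREB binds, was in none of these windows and in none of those listed for Adcy1, Ift27, Ccm2 and G530011O06Rik. It was in 508 of 32851 windows of all genes (1.55%), and TGACG on either strand was in 17.8% of all windows and in none of these. Windows for Adcy8, Cyb5r3, Slc11a2 and Gm10590 were not used here.

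Of the 4 called clusters with no symbol, 2 had identical values, with 8.19, 8.0, 8.06, 8.20 and 7.68 in WT and 7.41, 7.30, 6.74, 7.42 and 7.09 in DKO. The DKO 1 hr array was the lowest of the 10. The difference was -0.83 (SE 0.129, fold change -1.78, adjusted p = 0.0119), and it was not called after quantile normalization (0.185) or without the DKO 48 hr and 1 wk arrays (0.174). Another unnamed cluster was lower by -0.53 (adjusted p = 0.0493) and lost its call when any of 4 arrays was left out. The only cluster higher in DKO, also unnamed, had 6.96, 7.15, 6.97, 7.24 and 7.03 in WT and 7.70, 7.38, 7.56, 7.62 and 8.06 in DKO. Its difference was 0.59 (SE 0.108, fold change 1.51, adjusted p = 0.0567), and leaving out any of 7 arrays ended the call, with adjusted p of 0.114 to 0.258.

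Whether these differences were particular to the amygdala was tested against the hippocampus. Of the 28 clusters called in the amygdala, 23 were also called in the hippocampus, where 0.118% of all clusters passed the same limit. The 23 are not separate results, since they hold the 9 clusters of several Gm10590 copies, the 4 of Gm10590 alone and the 4 of Ccl21. Of the 7 single-symbol genes other than Gm10590, 4 were called in the hippocampus. Adcy8 had a hippocampal difference of -2.0 (SE 0.111), Cyb5r3 of -0.55 and Ift27 of -0.39 (adjusted p = 0.0652). The differences of Ccm2 (-0.23, adjusted p = 0.33), Slc11a2 (-0.24, 0.323) and G530011O06Rik (-0.27, 0.136) were in the same direction and did not pass. The test of the difference between regions was passed, at an adjusted p of 0.05, by 3 clusters in all (0.0104%), and Adcy1 was the only one of them called in the amygdala.

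The difference of Adcy1 was smaller in the amygdala than in the hippocampus. In the hippocampus it was -1.57 (SE 0.0765), from 9.29 ± 0.176 in WT to 7.72 ± 0.0523 in DKO (SD, n = 5), and the amygdala difference was 1.01 less negative (SE 0.122, limma adjusted p = 0.000574). The DKO means of both regions were close, 7.65 in the amygdala and 7.72 in the hippocampus, while the WT means were 8.21 and 9.29. For Adcy8 the regions differed by 0.55 (SE 0.153, adjusted p = 0.241).

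Vav3, a guanine nucleotide exchange factor, and Ctla2a, related to an inhibitor of cathepsin L, differed between regions in the other direction. Vav3 had 6.13, 5.95, 6.12, 6.00 and 5.93 in WT amygdala and 5.68, 5.81, 5.77, 5.60 and 5.70 in DKO amygdala, a difference of -0.31 (SE 0.0732) that was not called there (adjusted p = 0.432). In the hippocampus it was higher in DKO by 0.61 (adjusted p = 0.00752), and the region difference was -0.93 (SE 0.118, adjusted p = 0.000729). Vav3 is among the 20 thalamic neuron markers examined, whose mean in the hippocampus was 7.19 in WT and 7.51 in DKO. The part of thalamic tissue in the Vav3 values was not tested. Ctla2a had an amygdala difference of -0.36 (adjusted p = 0.473), a hippocampal one of 0.47 (0.175) and a region difference of -0.84 (SE 0.142, adjusted p = 0.0452). Ctla2a was the nearer of the 2 to the limit. With the time point as a block, and in most fits with 1 array left out, 1 region call in this direction was left. For both genes every DKO amygdala array was below every WT amygdala array, as on 0.551% of all clusters.

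**Figure D2:**
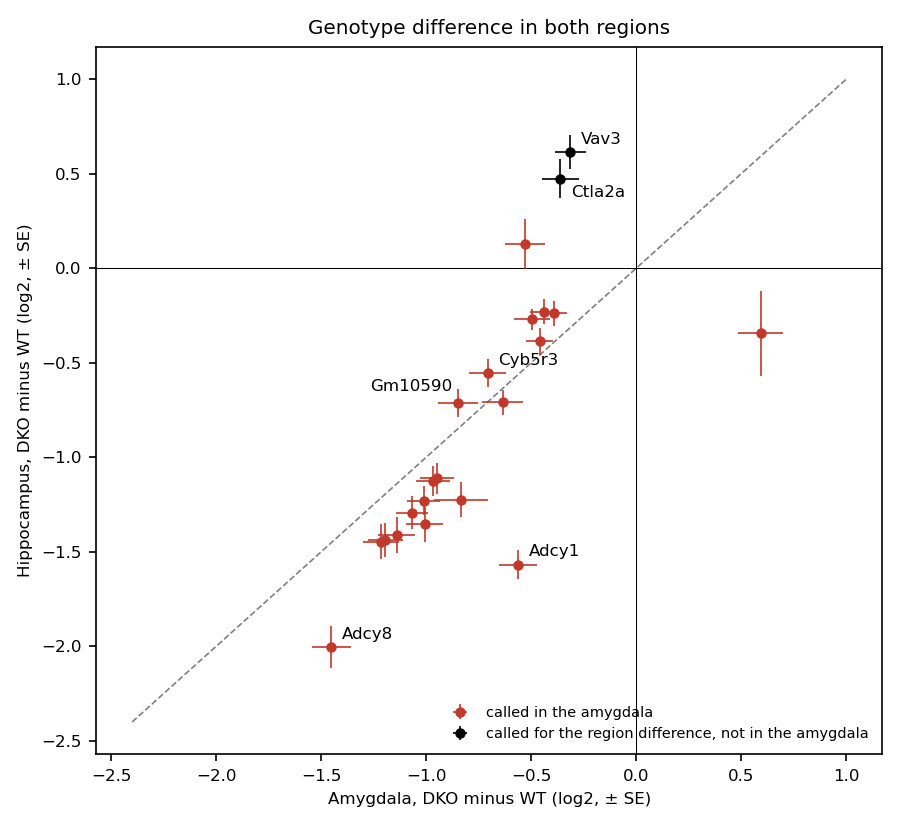
Difference between DKO and WT (log2, mean of 5 minus mean of 5 arrays, bars 1 SE) in amygdala (x axis) and hippocampus (y axis), for the clusters called in the amygdala and for Vav3 and Ctla2a; the dashed line marks equal differences. Adcy1 lies far below the line at -0.56 and -1.57, and Vav3 and Ctla2a lie above 0 in the hippocampus and below 0 in the amygdala.

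The called genes with a single symbol and a known chromosome were 7. Of these, 4 (Adcy8, Cyb5r3, Ift27 and Slc11a2) lie on chromosome 15, where 752 genes were measured, and 2 (Adcy1 and Ccm2) on chromosome 11, where 1566 were measured, and G530011O06Rik on the X. The calls were thus 0.532% of the genes measured on chromosome 15 and 0.128% of those on chromosome 11, beside 0.0351% of all 19919 measured genes in the RefSeq gene table. Ccm2 is separated from Adcy1 by 4 measured genes. On chromosome 15, 132 measured genes lie between Adcy8 and Ift27, 255 between Adcy8 and Cyb5r3, and 438 between Adcy8 and Slc11a2. Among the 10 measured genes on either side of Adcy1, Ccm2 was the only one called of 20, and 0 of 20 were called around Adcy8, where 0.0401% of all single-symbol genes were called. The nearest genes were at most 0.15 from 0, for example Ramp3 (0.00), a partner of the calcitonin receptor, and Igfbp3 (0.09), a carrier of insulin-like growth factors, beside Adcy1, and Asap1 (-0.15) and Efr3a (-0.07) beside Adcy8. None of these 4 was called, with limma adjusted p of 0.646 to 0.998.

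Among single-symbol clusters outside the limit, 12 lower and 12 higher had the smallest p. Of the 12 lower, 9 did not overlap between groups. The share over all clusters was 0.551% in that direction, and the choice by p largely fixes the count. Lynx1, a membrane-anchored protein that damps nicotinic acetylcholine receptors and lies on chromosome 15, had 9.18, 9.22, 9.08, 8.98 and 9.14 in WT and 8.76, 8.88, 8.68, 8.37 and 8.79 in DKO. Its amygdala difference, -0.43 (SE 0.0927), was outside the limit (adjusted p = 0.259), whereas its hippocampal difference, -0.49, passed (adjusted p = 0.00032). The region difference for Lynx1 was 0.06 (adjusted p = 0.74). Others of the 12 were the small nucleolar RNA Snord82 (-0.64, adjusted p = 0.111), the protocadherin Pcdhb21 (-0.46, 0.13), the merlin gene Nf2 (-0.43, 0.34), Atf6 of the unfolded protein response (-0.33, 0.353) and the Ca2+/calmodulin-stimulated phosphodiesterases Pde1c (-0.40, 0.473) and Pde1b (-0.45, 0.557).

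On the higher side the nearest was Wdfy1, an endosomal protein of Toll-like receptor signalling, with 7.36, 7.47, 7.46, 7.45 and 7.55 in WT and 7.91, 7.79, 7.88, 7.85 and 7.68 in DKO. The groups of Wdfy1 did not overlap, and the difference of 0.36 (SE 0.071) had an adjusted p of 0.111. The olfactory receptor Olfr821, one of the genes the study names, had 4.86, 4.81, 4.92, 4.91 and 4.90 in WT and 5.10, 5.05, 5.10, 5.14 and 5.12 in DKO. All Olfr821 levels were below the array means of the clusters at or below the median level, 5.365 to 5.533. Its arrays were separated by genotype with a small gap, and at 0.22 (SE 0.0638, fold change 1.17) it was outside the limit in limma (adjusted p = 0.646). By the methods' t-test, which does not borrow the spread of other clusters, Olfr821 was inside it (Benjamini-Hochberg 0.0543, Storey q 0.0395).

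The number of calls depended on the 48 hr and 1 wk (late) arrays. On the baseline, 0 hr and 1 hr (early) arrays of both genotypes alone, 4659 clusters passed the same limit (16.1%), 1803 lower in DKO (6.25%) and 2856 higher (9.9%). Of these, 225 differed by 1.5-fold or more, 187 lower and 38 higher. On the 48 hr and 1 wk arrays alone 10 clusters passed (0.0347%), Adcy8 and the 9 clusters paired with several symbols that include Gm10590. When only the WT 48 hr and 1 wk arrays were left out 3298 clusters passed, and when only the DKO ones were, 17. The early count rested on single arrays: it was 157 without the WT baseline array, 132 without WT 1 hr, 110 without DKO baseline, 8020 without WT 0 hr, 2068 without DKO 0 hr and 2502 without DKO 1 hr. In the hippocampus, leaving out 48 hr and 1 wk gave 31 (0.107%). All 28 clusters called over the 10 arrays were also called on the early arrays. The early arrays are among the same 10, so this is not a separate result.

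The direction of the early calls moved with the scaling. Lower clusters were 38.7% of the early calls on the deposited values, 53.6% after a further quantile normalization and 79.3% after each array was centred on its median. After quantile normalization 1297 clusters were called, and 1167 of the 4659 were among them. Of the 1803 lower clusters, 1487 were above the median level of all clusters, and of the 2856 higher ones, 1865 were at or below it. The WT baseline and 1 hr arrays were also those with the lowest means over the dim clusters. On the early arrays the genotypes did not overlap in the means of the dim or the bright clusters, given above. The part of the array means in the early calls was not tested.

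Among genes with a single symbol, the early calls of smallest p on the lower side were led, after Adcy8, Gm10590 and Cyb5r3, by Pde10a, the striatal phosphodiesterase that breaks down cAMP and cGMP. Pde10a had 10.20, 9.75, 10.18, 9.38 and 9.03 in WT and 9.06, 9.04, 8.98, 9.19 and 9.28 in DKO. The first 3 WT arrays were far above all DKO arrays, and the WT 1 wk array was below most of them. Its early difference was -1.02 (SE 0.116, limma adjusted p = 0.0033) and its late difference 0.03. Rgs9, which speeds the deactivation of G proteins in striatal neurons, had 9.71, 9.20, 9.77, 8.85 and 8.66 in WT and 8.66, 8.44, 8.48, 8.76 and 8.90 in DKO, with an early difference of -1.03 and a late one of 0.08. With any 1 of the 6 early arrays left out both stayed inside the limit, with adjusted p of at most 0.0327 for Pde10a and 0.0549 for Rgs9.

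A cluster of Adamts3, a metalloprotease that matures procollagen (-1.04 early, 0.22 late), Rasgrp2, a Ca2+-responsive exchange factor for Rap (-0.75 and -0.06), Rarb, a retinoic acid receptor (-0.79 and -0.05), and Foxp2, a forkhead factor of striatal and intercalated neurons (-0.54 and 0.10), ran the same way. Pde1b had 8.96, 8.92, 8.90, 8.56 and 8.35 in WT and 8.36, 8.39, 8.24, 8.13 and 8.32 in DKO, an early difference of -0.59 (adjusted p = 0.00516) and a late one of -0.23. For Pde10a, Rgs9 and Pde1b the DKO levels spanned less than the WT levels, which were highest at baseline, 0 hr and 1 hr. On the higher side the early calls of smallest p included Klk1b11, a kallikrein (0.67), Mir17 (0.56), Vmn2r54, a vomeronasal receptor (0.80), Ticam1, an adaptor of Toll-like receptors (0.64), and Cd79b of the B-cell receptor (0.52). Mir17 was at -0.32 late. Of the 2856 clusters called higher early, 382 were also higher late, and of the 1803 called lower, 1103 were also lower late. Single-symbol genes called higher early were 1975. They were 31 without the WT baseline, 18 without the WT 1 hr and 12 without the DKO baseline array, and those called lower went from 1281 to 37, 33 and 21.

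**Figure D3:**
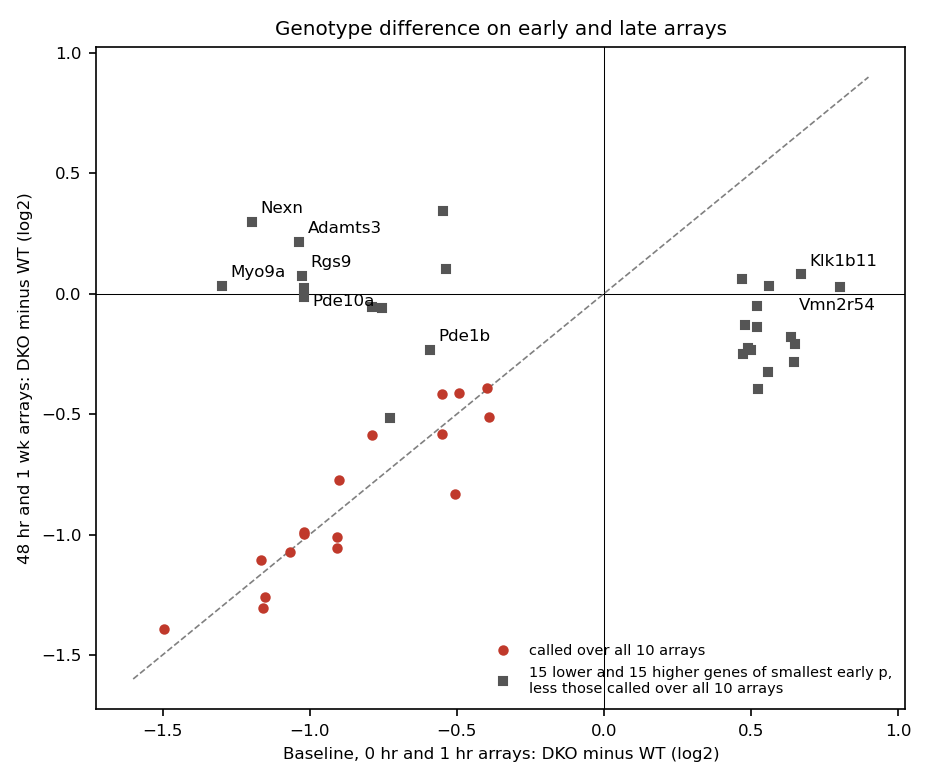
Difference between DKO and WT (log2) on the baseline, 0 hr and 1 hr arrays against that on the 48 hr and 1 wk arrays, for the clusters that carry a symbol and were called over all 10 arrays (circles) and for genes of smallest p on the early arrays (squares); the dashed line marks equal differences. The lower called clusters lie near the line, while Pde10a, Rgs9, Adamts3, Nexn and Myo9a, at -1.02 to -1.30 early, lie near or above 0 late.

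The change of the genotype difference from the early to the late arrays was tested too, in a fit added after the values were seen. The p-values do not allow for that choice. At an adjusted p of 0.05 the change passed for 108 clusters (0.374%), 54 with a difference that became lower and 54 with one that became higher. None of the 28 called clusters was among them. The split moved with the scaling, to 2 and 58 after quantile normalization and to 1 and 71 after median centring. Pde10a (change 1.04, limma adjusted p = 0.0327), Rgs9 (1.10, 0.0366), 1 of 16 clusters of Adamts3 (1.25, 0.0178) and 1 of 77 clusters of Hmcn1, an extracellular hemicentin (0.89, 0.0287), passed upwards. After quantile normalization Pde10a (adjusted p = 0.103) and Rgs9 (0.104) were outside the limit. Ifnl2, a type III interferon, went from 0.53 early to -0.40 late (change -0.92, adjusted p = 0.00636), and Gata4, a zinc finger transcription factor, from 0.53 to -0.35 (-0.88, 0.0178). Ifnl2 also passed after quantile normalization (0.0445) and median centring (0.0463), whereas Gata4 did not (0.0898 and 0.0724). The count was 1279 without the WT 0 hr array, 52 without the WT 1 hr array and 0 among clusters above the median level.

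The genes of the cAMP pathway were counted by role. Over the 35 gene lists examined, 634 genes were measured and 6 were called (Adcy8, Adcy1, Slc11a2, Ift27, Ccm2 and Cyb5r3), each the only call of its list except for the cyclases. Medians of the lists ran from -0.34 to 0.30, beside -0.02 over 19938 genes and -0.08 over the 10531 genes above the median level. Of the 10 adenylyl cyclases, Adcy8 and Adcy1 were called lower and none higher (median -0.11). Adcy5, the main striatal cyclase, had 8.20, 7.91, 8.18, 7.60 and 7.62 in WT and 7.57, 7.67, 7.49, 7.54 and 7.70 in DKO, so that the WT 48 hr and 1 wk arrays lay among the DKO arrays. Adcy5 was not called over the 10 arrays (-0.31, adjusted p = 0.646) and was lower on the early arrays (-0.52, adjusted p = 0.0374), a call that ended without the WT baseline (0.129), WT 1 hr (0.151) or DKO baseline (0.139) array. Adcy2 had -0.17 (adjusted p = 0.646).

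None of 18 phosphodiesterases (median -0.10) or 19 genes of protein kinase A, its inhibitors and anchors (-0.15) was called over the 10 arrays. On the early arrays 9 of the 18 phosphodiesterases were called lower and 7 of the 19 protein kinase A genes, none higher, where 6.42% of all single-symbol genes and 10.8% of those above the median level were called lower. After quantile normalization these counts were 5 and 4, beside 2.19% of all single-symbol genes. With 1 early array left out they ran from 2 to 9 and from 1 to 8. The phosphodiesterases included Pde7b (-0.65 early) and Pde1c (-0.52), and the protein kinase A genes included the regulatory subunit Prkar2b (-0.44) and the protein phosphatase 1 inhibitor Ppp1r1b (-0.50), also known as DARPP-32. Of 18 G protein subunits and Epac genes none was called over the 10 arrays (-0.11), and on the early arrays Gng7 (-0.46) and Gnal (-0.63), subunits of the G protein that couples striatal receptors to Adcy5, were lower. The early calls of this list were 2 of 18 (11.1%), close to the 10.8% of genes above the median level. None of the 18 was called lower without the WT baseline, the WT 1 hr or the DKO baseline array.

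No gene downstream was called over the 10 arrays among 15 of the CREB family (median -0.08), 14 of the MAPK cascade (-0.10), 20 of calmodulin, calcineurin and the CaM kinases (-0.12) and 37 immediate early genes (-0.04). On the early arrays 0, 4 and 3 genes of the CREB, MAPK and calmodulin lists were called lower and 1, 0 and 0 higher. Of all single-symbol genes 6.42% were called lower there, and 10.8% of those above the median level. After quantile normalization 0, 1 and 0 were lower and none higher. With 1 early array left out the lower counts ran from 0 to 2, 0 to 4 and 0 to 7. Egr1, which neurons switch on within an hour of activity, had 7.98, 8.04, 8.30, 7.97 and 7.96 in WT and 7.76, 7.87, 8.02, 7.58 and 8.0 in DKO. Both genotypes had their highest Egr1 level at 1 hr, and with -0.20 it was outside the limit (adjusted p = 0.646). Nr4a1, an activity-induced nuclear receptor, had -0.20 and Egr4 had 0.19, both at the same adjusted p. The early calls among the immediate early genes were 0 lower and 4 higher of 37, where 9.91% of all single-symbol genes were called higher. They were 0 and 1 after quantile normalization, beside 2.19% of all single-symbol genes called lower and 1.74% higher. After median centring they were 4 lower and 0 higher, where 17.9% of all single-symbol genes were called lower and 4.17% higher.

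Receptor and channel genes were not called over the 10 arrays either. This held for 21 glutamate receptors (median -0.12), 17 genes of GABA receptors, synthesis and transport (-0.11), 19 receptors of dopamine, serotonin and noradrenaline (-0.05), 24 potassium channels (-0.14), 17 calcium channels (-0.11) and 27 genes of synaptic vesicles and release (-0.10). On the early arrays 5, 3, 3, 6, 5 and 2 genes of these lists were called lower and 0, 0, 1, 0, 0 and 0 higher. After quantile normalization 0, 0, 2, 1, 0 and 2 were lower and 0, 0, 0, 0, 1 and 0 higher. With 1 early array left out the smallest lower count was 0 in each of these lists. Drd2, the D2 dopamine receptor, had -0.56 on the early arrays (adjusted p = 0.0385) and -0.14 on the late ones, and Htr1b, a serotonin receptor, -0.49 (0.0392) and -0.11. Among 35 neuropeptides and their receptors (median -0.03) the opioid precursor Penk had -0.45 early (adjusted p = 0.0439) and -0.01 late. Without the WT baseline array neither Drd2 (0.129) nor Penk (0.128) was called on the early arrays. The same held without the WT 1 hr array (0.151 and 0.159) and without the DKO baseline array (0.138 and 0.151). Without the WT 1 hr or the DKO baseline array none of the 19 receptors of dopamine, serotonin and noradrenaline was called lower. In the lists set around called genes, no other member passed over the 10 arrays. This held for the 19 genes of iron and metal handling (median -0.07), 23 of intraflagellar transport and the BBSome (-0.13), 14 of the cavernous malformation complex (-0.11) and 9 of cytochrome b5 and its reductases (-0.14). On the early arrays 2, 7, 4 and 2 genes of these lists, the called gene included, were lower and 1, 0, 1 and 0 higher. Of all single-symbol genes 6.42% were called lower and 9.91% higher there, and of those above the median level 10.8% lower. With 1 early array left out the lower counts ran from 0 to 3, 0 to 9, 0 to 6 and 1 to 3. After quantile normalization 1, 1, 2 and 2 were lower and none higher.

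Markers of striatal projection neurons were the list with the lowest median, -0.34 over 26 genes, of which 24 had a negative difference and none was called over the 10 arrays. Averaged over its genes the list stood at 8.60, 8.36, 8.57, 8.20 and 8.13 in WT and at 8.05, 8.08, 8.01, 8.05 and 8.16 in DKO. The DKO arrays were within 0.15 of each other, and the WT baseline, 0 hr and 1 hr arrays lay above all of them. On the early arrays 19 of the 26 were called lower and 1 higher, beside 6.42% and 9.91% of all single-symbol genes. The counts were 17 and 0 after quantile normalization, beside 2.19% and 1.74% of all single-symbol genes. After median centring they were 21 and 1, beside 17.9% and 4.17%. With 1 early array left out 6 to 20 were called lower, 6 of them without the DKO baseline array. Members of this list in the other groups include Adcy5, Gnal, Gng7, Pde10a, Pde1b, Pde7b, Ppp1r1b, Drd2 and Penk. Tac1, the substance P precursor, had 10.91, 10.26, 10.98, 9.84 and 10.04 in WT and 9.58, 9.79, 9.73, 10.00 and 10.18 in DKO, with -1.02 early (adjusted p = 0.0233, and 0.127 without the DKO baseline array) and 0.15 late. In tissue punches, fewer cells of a type and less RNA per cell cannot be told apart, and the part of striatal tissue in these values was not tested.

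Markers of the central and intercalated amygdala had no called member over the 10 arrays (median -0.11 over 22 genes). On the early arrays 9 were called lower and 1 higher, beside 6.42% and 9.91% of all single-symbol genes. The counts were 4 and 1 after quantile normalization, beside 2.19% and 1.74% of all single-symbol genes. After median centring they were 14 and 1, beside 17.9% and 4.17%. With 1 early array left out 1 to 11 were called lower. Markers of basolateral and pallial excitatory neurons had a median of -0.03 over 20 genes. On the early arrays 0 were called lower and 4 higher, beside 9.91% of all single-symbol genes called higher. Under either other scaling these counts were 0 and 2. Of all single-symbol genes 1.74% were called higher after quantile normalization and 4.17% after median centring. Astrocytes (-0.06), oligodendrocytes (-0.12) and microglia (-0.13) had no called member over the 10 arrays.

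Markers of the choroid plexus had the highest median, 0.30, and all 17 had a positive difference, none of them called on the 10 arrays or on the early ones. The list mean was 7.80, 6.86, 6.73, 7.04 and 7.98 in WT and 7.95, 6.79, 7.84, 7.45 and 7.89 in DKO. Arrays of both genotypes were high or low, and the gap was 1.11 at 1 hr, 0.41 at 48 hr and -0.09 at 1 wk. Ttr, the thyroxine carrier made by choroid plexus, had 13.23, 11.17, 11.03, 11.56 and 13.20 in WT and 13.04, 10.14, 13.08, 12.68 and 13.17 in DKO, a difference of 0.38 (SE 0.544, adjusted p = 0.785). Markers of ependyma (median 0.13 over 18 genes) and of meninges (0.12 over 20) were also slightly positive, with none called over the 10 arrays.

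**Figure D4:**
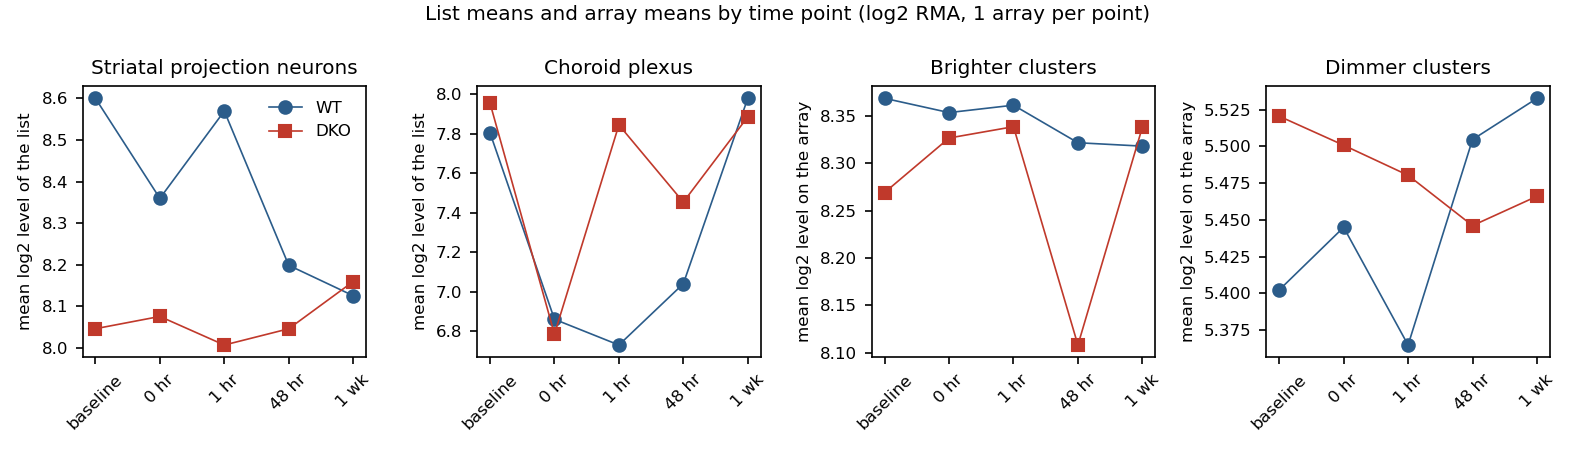
Mean level (log2 RMA, 1 array per point) by time point of the striatal projection neuron markers, the choroid plexus markers, all clusters above the median level and all clusters at or below it; circles are WT and squares DKO. The WT striatal mean ran from 8.60 at baseline to 8.13 at 1 wk with DKO between 8.01 and 8.16, and the DKO 48 hr array had the lowest mean of the brighter clusters, 8.11.

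At single time points 1 array stood against 1, so only sizes are given. Baseline had the most clusters past 1.5-fold, 886 lower (3.07%) and 735 higher (2.55%), and 0 hr the fewest, 128 lower (0.444%) and 60 higher (0.208%). There were 420 lower (1.46%) and 348 higher (1.21%) at 1 hr, 418 (1.45%) and 102 (0.354%) at 48 hr, and 112 (0.388%) and 189 (0.655%) at 1 wk. Counted over all clusters, the direction at 48 hr did not hold under other scaling. There were 150 lower and 168 higher after quantile normalization, and 131 and 231 after median centring. At 2-fold there were 24 lower and 58 higher clusters, but these held 20 and 9 distinct sets of values, so more sets were lower. At 1.5-fold the 418 lower clusters at 48 hr held 406 distinct sets of values and the 102 higher ones 53. Lower at 1.5-fold at all 5 time points were 12 clusters, and no cluster was higher at 4 or more. Of the 28 called clusters 25 passed 1.5-fold at baseline and 17 at 1 wk.

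Among single-symbol clusters above the median level, the genes of largest difference changed from one time point to the next. At baseline Myo9a, an unconventional myosin (-1.93), and Nexn, an actin-binding protein (-1.70), were lowest in DKO relative to WT, and Krtap10-10, a hair keratin-associated protein (1.24), was highest. At 0 hr the lowest were a cluster of the chromatin remodeller Chd7 (-1.13), Ttr (-1.04) and Cyb5r3 (-0.94). At 1 hr the neuropeptide precursors Tac2 (-1.31) and Nts (-1.29) were among the lowest, and Ecrg4 (2.40), Ttr (2.05), Calml4 (1.78) and Kcne2 (1.46), the last a potassium channel subunit of choroid plexus, were the highest. At 48 hr Ecrg4 (1.81) and Ttr (1.13) were again highest and Ptpn3, a tyrosine phosphatase (-1.37), and Grin2a, an NMDA receptor subunit (-1.13), among the lowest. At 1 wk the lowest of them was Rasl10a (-0.71), and Zfp617 (1.16) and Cspp1 (1.04) were highest.

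**Figure D5:**
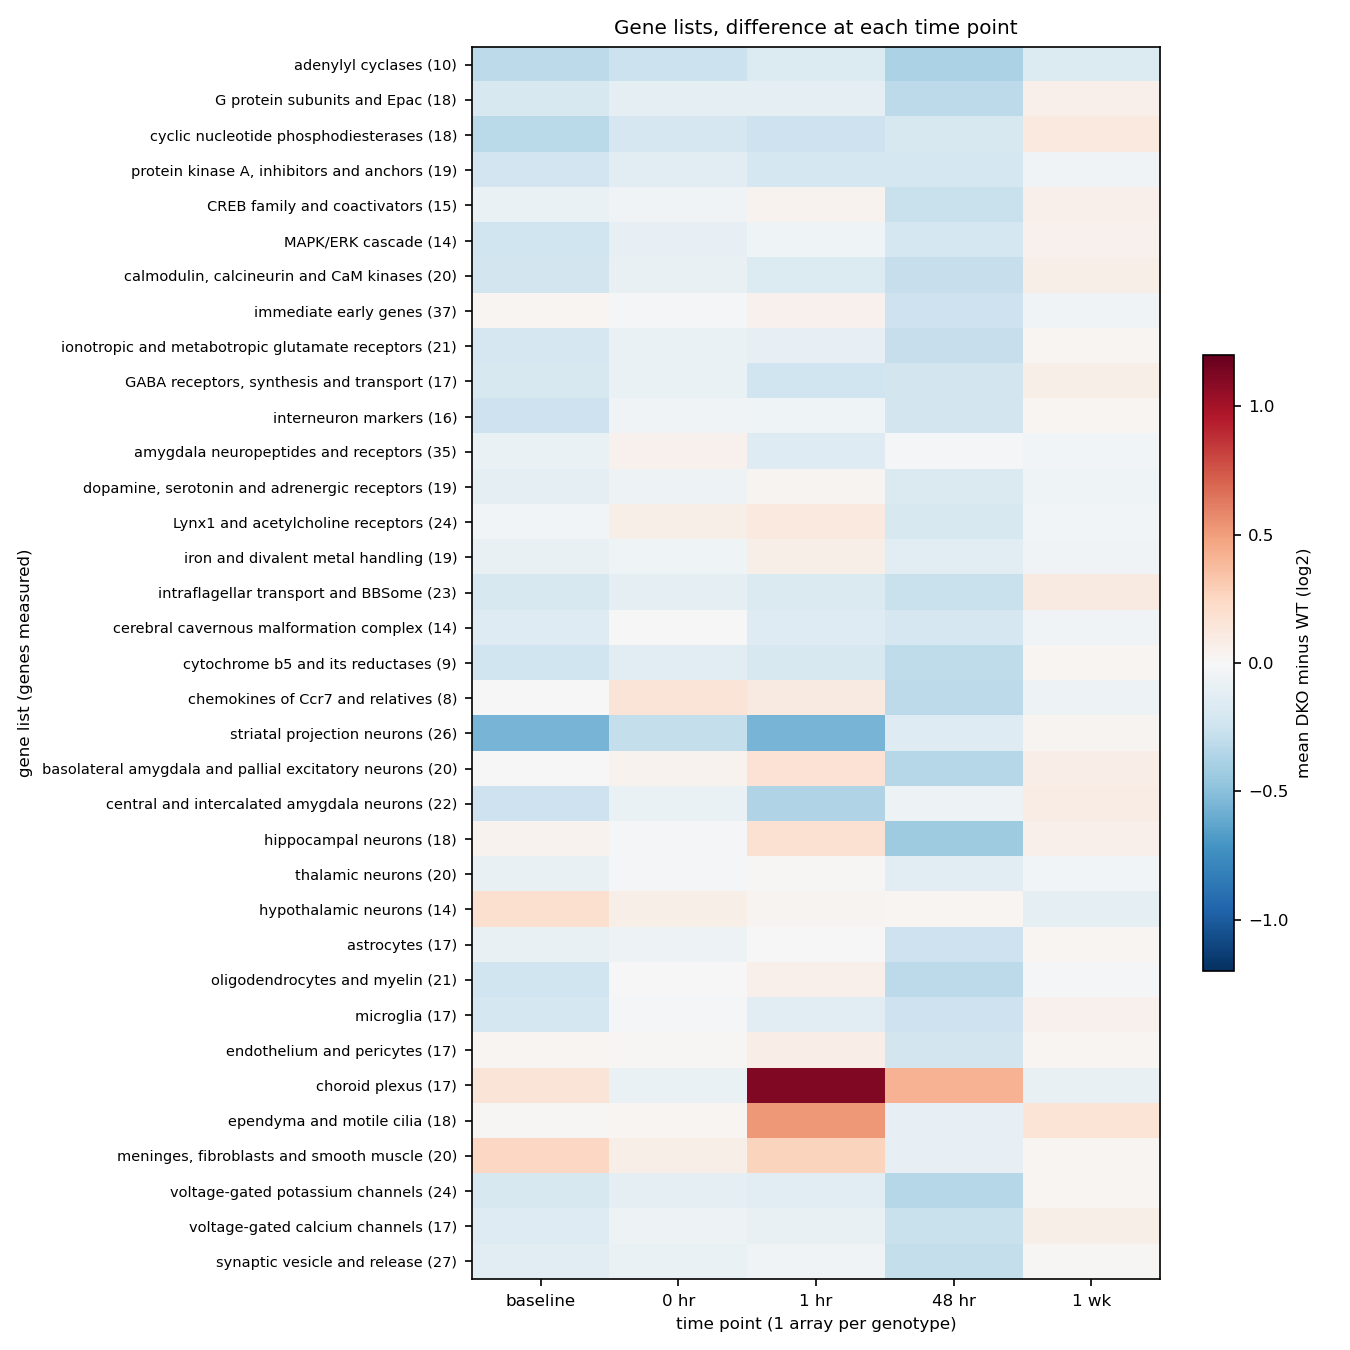
Mean difference between DKO and WT (log2, 1 array per genotype) of each of the 35 gene lists at each time point, with the number of genes measured in parentheses; blue is lower in DKO and red higher. The striatal list is blue at baseline and 1 hr (-0.55 and -0.56) and near 0 at 1 wk (0.03), the choroid plexus list is red at 1 hr (1.11), and most lists are pale blue at 48 hr.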

How the data were processed

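RNA of DKO and WT amygdala was hybridised to 10 arrays of the Affymetrix Mouse Gene 1.0 ST type. The authors deposited log2 RMA values made in the Affymetrix Expression Console, background-corrected, quantile-normalized and summarized per transcript cluster; detection p-values were not used here, and the genome build and library file are not given in the sources used here. Groups came from the sample titles. DKO minus WT was tested with limma 3.58.1 in R 4.3.3 (lmFit, eBayes; Benjamini-Hochberg over 28853 clusters, limit 0.1), the region difference over all 20 arrays and the early-to-late change at 0.05. The test was checked on simulated data with known differences and with noise independent between clusters and arrays. That check does not cover deviations that many clusters of an array share. Depth does not apply to arrays, and the number of arrays limits the precision: the labels give no mouse identities beyond pools, so p-values measure the spread between pools and times. Tables and figures used Python 3.11.15 with numpy 2.4.6, pandas 2.3.3 and matplotlib 3.10.9.

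Named were all called clusters, genes the study names for this contrast, the 12 lower and 12 higher of smallest p outside the limit, up to 4 members per list, 2 neighbours on each side of Adcy1 and Adcy8, and the 5 largest differences each way per time point. Symbols of the array annotation were kept, and several clusters of a gene were averaged in lists. The test of the early-to-late change was added after the values were seen. Genes leading the early calls and that change were chosen after their values were seen. The members and lists were chosen with earlier results of these data known. Alternatives were other scaling, filters on level, variance models, the t-test of the methods with Benjamini-Hochberg and Storey adjustment, the time point as a block, identical values taken once, and arrays left out.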

Additional observations from a re-analysis of the deposited data

Results flagged for a closer look

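Each group of 5 arrays was checked for a highest or lowest array set apart from the others by Dixon's ratio, over 160 groups of values, and 11 were found; chance flags about 1 in 20 groups.

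In 7 of the 11 the DKO 48 hr array had the lowest list mean. It lay at 6.92 for the adenylyl cyclases (7.06 to 7.10 on the other DKO arrays), 7.81 for the CREB family (8.03 to 8.11), 6.98 for the dopamine, serotonin and adrenergic receptors (7.11 to 7.13), 7.44 for iron and metal handling (7.56 to 7.60), 6.71 for thalamic neurons (6.83 to 6.86), 8.38 for astrocytes (8.59 to 8.67) and 7.19 for endothelium and pericytes (7.35 to 7.41). The same array had the lowest mean over the brighter clusters, 8.11, and the part of that mean in these 7 values was not tested.

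Of the clusters paired with several symbols that include Gm10590, 1 was highest on the WT baseline array at 9.16 (8.74 to 8.83 on the others) and on the DKO 1 hr array at 7.92 (7.63 to 7.71), and another on the WT baseline array at 8.96 (8.61 to 8.70). Nf2 was lowest on the WT 1 wk array at 7.70 (8.0 to 8.08).

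The genotype difference differed between amygdala and hippocampus by 1.01 for Adcy1, by -0.93 for Vav3 and by -0.84 for Ctla2a, each by limma's test of the difference. It changed between early and late arrays for 108 clusters, by a test added after the values were seen.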

How the results depend on the processing

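The number of arrays and their order in time limit these results: each genotype has 1 pool of mice per time point. Beside 28 genotype calls, other scaling, variance models, tests, limits or sample sets gave 20 to 38, and leaving out any 1 array 24 to 37. These were not all the same clusters: 18 of the 28 were called by the methods' t-test under either adjustment, and 27 of the 28 among the 38 called with array weights. The count moved to 4659 (1803 lower, 2856 higher) without the 48 hr and 1 wk arrays. Combinations chosen after seeing the data gave, without those arrays, 1297 (695 and 602) with quantile normalization, 6053 (4797 and 1256) with median centring, 3782 (1467 and 2315) with the time point as a replicate block and 2980 (1852 and 1128) above the median level. Also chosen after seeing the data, only the late arrays gave 10, leaving out the WT late arrays 3298 (1705 and 1593), and leaving out the DKO late arrays 17. With 1 of the 6 early arrays left out as well, the early count ran from 110 to 8020; the cause was not tested.

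Arrays of the same replicate number share their time point but hold different mice, and their deviations from the group means correlated at r of -0.42 to 0.20 over 5 pairs, above 0.1 in 3. With the time point as a replicate block 24 clusters were called, 23 of them among the 28, and Adcy1, Ccm2 (both adjusted p = 0.182), Slc11a2 (0.191), G530011O06Rik (0.293) and the unnamed higher cluster (0.184) were not.

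The 3 region calls became 1 above the median level, 2 with the block and 2 to 5 with 1 array left out, 5 without the hippocampal DKO 48 hr array. The 108 early-to-late changes became 60 (2 lower, 58 higher) with quantile normalization, 72 (1 and 71) with median centring, 0 above the median level, 1450 at a limit of 0.1 and 52 to 1279 with 1 array left out.

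At 2-fold the counts were 136 (baseline), 11 (0 hr), 120 (1 hr), 82 (48 hr) and 18 (1 wk) at the single time points. With quantile normalization the 48 hr count at 1.5-fold was 318 (150 lower, 168 higher). Median centring gave 1513 lower and 305 higher at baseline, 696 and 135 at 1 hr, and 131 and 231 at 48 hr.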

Other observations

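Of the clusters 2-fold higher in DKO at 48 hr, 58 in number, only 9 distinct sets of values stood behind the count, and 24 clusters with 20 distinct sets were 2-fold lower. At 1 hr 100 clusters 2-fold lower held 47 distinct sets.

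In lists whose members were not described above, hypothalamic neuron markers had a median of 0.07 over 14 genes, with 0.22 on the early and -0.04 on the late arrays, and 6 called higher and 1 lower on the early arrays (1 and 0 after quantile normalization, 2 and 1 after median centring), beside 9.91% and 6.42% of all single-symbol genes, whose early median was itself 0.03. Of all single-symbol genes 1.74% were called higher and 2.19% lower after quantile normalization, and 4.17% and 17.9% after median centring. Oxt, the oxytocin precursor, was the named member among the hypothalamic markers, at 0.39 early (adjusted p = 0.0392) and -0.21 late. Thalamic neuron markers had a median of -0.00 over 20 genes. Nexn, listed there, had 8.70, 7.81, 8.37, 7.48 and 6.90 in WT and 7.0, 7.17, 7.13, 7.30 and 7.68 in DKO. The WT 1 wk array was below all DKO arrays, and the WT baseline array above all of them. Its early difference of -1.19 (adjusted p = 0.0167) stood against 0.30 late, and the change did not pass (adjusted p = 0.0507).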
